A study of Mus musculus with 7 samples.

Results

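The cells that line, wrap and support the heart muscle were compared between the atria and the ventricles of wild-type mice. A cell was taken when its annotation was neither atrial nor ventricular cardiomyocyte (CM) nor blood and it carried no exclusion mark, and left atrium (LA) and right atrium (RA) were pooled against left ventricle (LV) and right ventricle (RV) at each stage. A stage was used when each side held at least 20 such non-myocytes, and all stages did. They numbered 24920 of the 52881 wild-type cells and of the 76801 cells of the whole series, with 9764 in CD1 at 18 stages from E9.5 to P9 (5193 atrial, 4571 ventricular) and 15156 in C57BL/6 at 17 stages from E10.5 to P9 (6620 atrial, 8536 ventricular). Both strains were untreated wild types, CD1 being an outbred strain and C57BL/6 an inbred strain. Each of the 72 CD1 and 68 C57BL/6 samples was 1 zone at 1 stage from several pooled hearts, barcoded by MULTI-seq (a lipid-anchored DNA tag per sample) and sequenced as single cells. The atrioventricular canal and the ventricular septum were dissected with the LV, and only postnatal ventricular samples passed a coarse strainer, so that after birth the side of the heart and this step cannot be told apart.

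The heart wall is layered. Endocardial endothelial cells (ECs) line the chambers, vascular ECs form the coronary vessels with pericytes and smooth muscle cells (SMCs) around them, epicardial cells cover the surface and give rise to fibroblasts and mural cells, fibroblast-like cells make the matrix, and macrophages and other leukocytes are resident or passing immune cells. Atrial walls are thin and in part fed from the lumen, whereas the compact ventricular wall depends on a dense coronary bed. The types carry the authors' names, given from markers such as Npr3 (endocardial ECs), Fabp4 (vascular ECs), Wt1 (epicardial cells), Postn (fibroblast-like cells), Pdgfrb (pericytes), Myh11 (SMCs) and C1qa (immune cells). The tables hold no gene values, so these markers could not be examined here.

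The CMs served to check the labelled sides. Over all stages 96.0% of 5608 CMs from CD1 atrial samples and 98.9% of 4972 from C57BL/6 atrial samples were annotated as atrial. Early atrial samples stood apart: the share was 12.9% of 70 CMs at E9.5 and 28.6% of 7 at E10.5 in CD1, and between 0% and 72.7% of 5 to 50 CMs at E10.5 to E13.5 in C57BL/6. The paper reports that a ventricular CM cluster with atrioventricular canal markers also held atrial CMs of E9.5 and E10.5. The part of this annotation in the low shares was not tested. Late ventricular samples held few CMs, which the paper ascribes to neonatal ventricular CMs being too large for the single-cell device. At P7, P8 and P9 of C57BL/6 between 97.3% and 100% of 8 to 37 CMs were annotated as atrial. The early atrial samples were also the smallest, with 23 non-myocytes at E9.5 and E10.5 of CD1 and 27 to 44 at E10.5 to E14.5 of C57BL/6, against 54 to 3542 in ventricular samples. The largest zone, the RV at E13.5 of C57BL/6, gave 3204 non-myocytes. Non-myocytes had a median of 10677 UMIs in CD1 and 9371 in C57BL/6. Of 27368 and 25372 cell barcodes, 76 and 64 occurred in more than 1 well. The side differences without the stages that the CM counts touch are given after those of all stages.

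Atria held more endocardial ECs and epicardial cells, and ventricles held more vascular ECs, pericytes and SMCs, in both strains. These 5 types passed the test in CD1 and in C57BL/6. The test was a two-sided exact sign-flip permutation test over stages of the atrial minus ventricular share, with Benjamini-Hochberg adjustment over the 15 tests of the types with at least 100 cells. All 7 types tested passed in CD1 (100%) and 5 of 8 passed in C57BL/6 (62.5%), so that passing did not set one type apart in CD1. Shares of a sample sum to the whole, and a higher share of one type lowers the others. Each stage and zone is 1 pooled sample, so that the p-values measure the spread between stages.

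**Figure D1:**
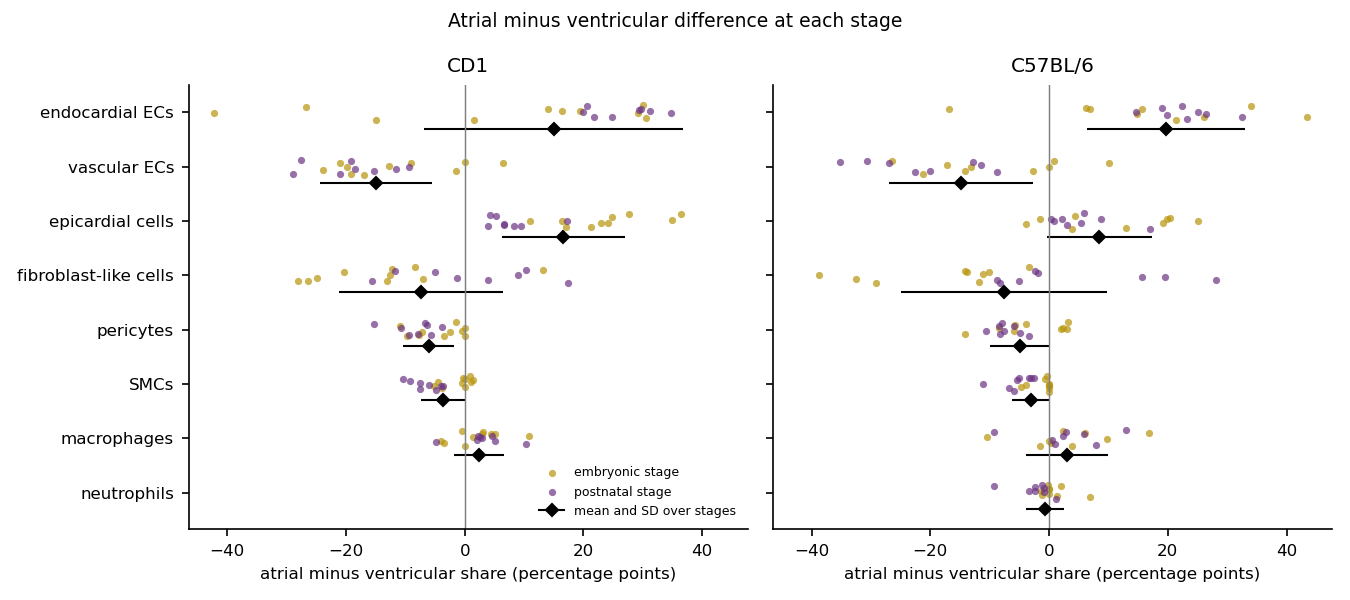
Atrial minus ventricular share (percentage points, x axis) of each non-myocyte type (y axis) in CD1 and C57BL/6, with 1 point per stage (yellow embryonic, purple postnatal) and a diamond with a bar for the mean and SD over 18 or 17 stages. Points of endocardial ECs and epicardial cells lie mostly right of 0 and those of vascular ECs, pericytes and SMCs mostly left of it; in CD1 endocardial ECs, 3 embryonic points lie left of 0, down to -42.2.

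Endocardial ECs, the lining of the chambers, made up 32.9 ± 7.24% of CD1 atrial non-myocytes and 17.9 ± 20.9% of ventricular ones (mean ± SD over stages, n = 18). The atrial share ran from 21.7% at E10.5 through a median of 34.4% to 43.5% at E9.5, and the ventricular share from 4.24% at P7 through 9.29% to 85.7% at E9.5. The ranges overlapped through the ventricular values of E9.5 to E12.5, and from E13.5 on every ventricular share (20.6% or less) lay below every atrial share. Ventricles were the higher side at E9.5 (85.7% against 43.5%), E10.5 (36.7% against 21.7%) and E11.5 (49.8% against 23.0%), and atria at the 15 later stages. The atrial shares at E9.5 and E10.5 were 10 and 5 of 23 cells each. At E9.5 the RV gave only 3 of the 70 ventricular non-myocytes. The LV, which was dissected with the atrioventricular canal, gave 58 of the 60 ventricular endocardial ECs. In the authors' first annotation, valve cells were 36 of these 60 and 6 of the 10 atrial ones. The counts were 12 of 33 and 1 of 5 at E10.5, and 7 of 115 and 6 of 23 at E11.5. The mean difference was 14.96 ± 21.8 points (adjusted p = 0.0185, exact sign-flip permutation test, n = 18). In C57BL/6 the atrial share ran from 13.6% at E12.5 through 32.1% to 53.2% at E18.5, and the ventricular share from 0.877% at P5 through 13.1% to 30.4% at E12.5. Atria were higher at 16 of 17 stages, all but E12.5, by a mean of 19.7 ± 13.3 points (adjusted p = 0.000458, same exact test). At P1 the values were 42.8% against 8.10% in CD1 and 42.3% against 9.76% in C57BL/6. The CD1 call was lost in subsets of the stages: over the 10 embryonic stages alone the difference was 5.73 points with an adjusted p of 0.477 by the same exact test, and over the experiment from E9.5 to P3 alone 9.87 points with an adjusted p of 0.166. Without P4, P7 and P9, at which over 20% of the CMs of ventricular samples were annotated as atrial or none was found, it was 12.5191 points with an adjusted p of 0.0651 (same exact test, 15 stages).

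Vascular ECs, which form the coronary vessels, were the reverse. In CD1 they ran from 0% at E9.5 through 3.78% to 8.70% at E10.5 in atria, and from 0% at E9.5 through 19.7% to 34.7% at P9 in ventricles. From E12.5 on, every ventricular share (10.8% or more) lay above every atrial share of the strain. The mean difference was -14.96 ± 9.49 points, negative at 16 of 18 stages (adjusted p = 0.000229, exact sign-flip permutation test). In C57BL/6 the atrial median was 3.70% and the ventricular median 22.6%, with the highest values at 14.3% (E13.5, 4 of 28 cells) and 37.7% (P5). The difference there was -14.9 ± 12.2 points, negative at 14 of 17 stages (adjusted p = 0.00061, same exact test). At the 8 postnatal stages of each strain the ventricle was the higher side without exception, by 9.46 to 28.9 points in CD1 and by 8.77 to 35.3 points in C57BL/6.

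Epicardial cells, the outer cover of the heart, were more frequent in the atria at all 18 CD1 stages. Their share fell with stage on both sides, from 65.2% at E10.5 to 3.85% at P5 in atria (median 18.48%) and from 48.9% at E10.5 to 0% at P5, P7 and P9 in ventricles (median 1.44%). The 0 counts allow ventricular shares of up to 5.56% at P5 (54 cells), 2.54% at P7 (118 cells) and 1.26% at P9 (239 cells). The difference was 16.6 ± 10.4 points with an adjusted p of 0.000114, and the unadjusted p of 7.63e-06 is the smallest that an exact sign-flip permutation test of 18 stages can give. At E12.5 the shares were 49.1% of 112 atrial and 12.7% of 260 ventricular cells. In C57BL/6 atria were higher at 15 of 17 stages, all but E10.5 and E13.5, by 8.46 ± 8.85 points (adjusted p = 0.00118, same exact test). The atrial values there ran from 1.499% at P7 through 9.23% to 29.6% at E14.5 and the ventricular ones from 0% at P4, P5 and P9 through 1.12% to 18.3% at E11.5. In CD1, the epicardial cells of the first stages had mostly been set apart in the authors' first annotation as valve cells: 12 of 15 atrial and 43 of 44 ventricular cells at E10.5 and all 13 at E9.5. Leaving out the cells of CD1 first marked as valve or neural crest kept the CD1 call over the 16 stages that remained. E9.5 and E10.5 were not among them, since too few atrial non-myocytes were left there.

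**Figure D2:**
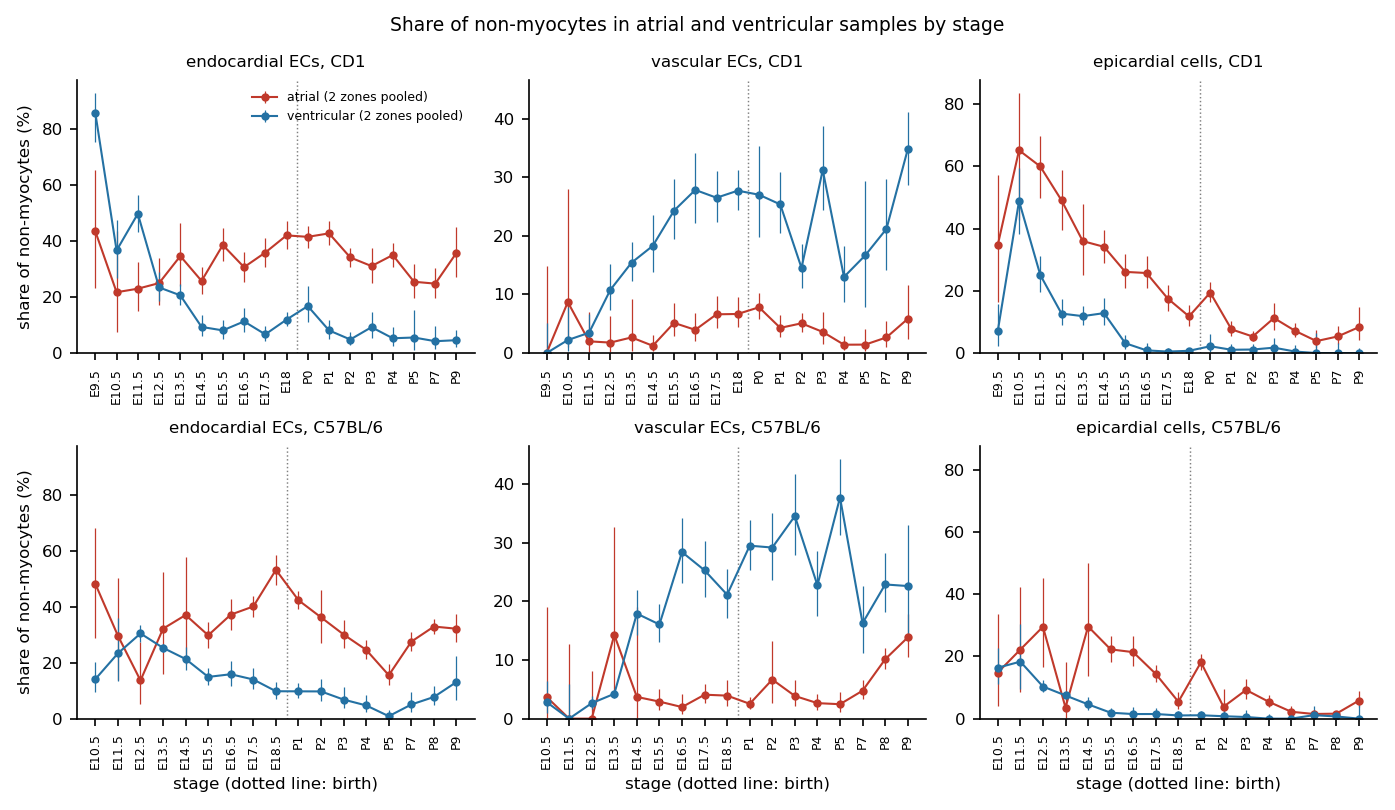
Share of non-myocytes (%, y axis) that were endocardial ECs, vascular ECs or epicardial cells at each stage (x axis) in atrial (red) and ventricular (blue) samples of CD1 (top) and C57BL/6 (bottom); bars are exact 95% binomial intervals, which cover counting error only, and the dotted line is birth. Atrial endocardial ECs stay near a median of 34.4% in CD1 while the ventricular share drops from 85.7% at E9.5, and ventricular vascular ECs climb to 34.7% at P9 with atrial ones at 8.70% or less.

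Among ECs alone, which sets the other types aside, the vascular part was small in atria and large in ventricles. At the 15 CD1 stages with at least 20 ECs on each side it was 10.3 ± 3.75% in atria (3.91% to 15.8%) and 65.0 ± 21.9% in ventricles (6.50% to 88.3%). The difference of -54.7 ± 20.7 points had an adjusted p of 0.000244 (exact sign-flip permutation test, 2 tests), and the only stage at which the atrium was not lower was E11.5, with 8% of 25 atrial and 6.50% of 123 ventricular ECs. In ventricles the part was 31.5% at E12.5, 42.8% at E13.5, 66.2% at E14.5 and 75% at E15.5, whereas in atria it was 6.67%, 7.14%, 4.60% and 11.8% at the same stages. In C57BL/6, 12 stages from E15.5 on qualified, and the part was 12.9 ± 7.47% in atria and 73.1 ± 11.9% in ventricles (difference -60.2 ± 13.8 points, lower in atria at 12 of 12 stages, adjusted p = 0.000488, same exact test). Its lowest ventricular value, 51.9% at E15.5, was above its highest atrial value, 30.1% at P9. P8 and P9 had the highest atrial values of these C57BL/6 stages, with 23.5% and 30.1%, against 14.8% at P7. The RA gave 55 of 237 atrial ECs at P7, 507 of 510 at P8 and 149 of 166 at P9. In the RA alone the vascular part was 25.5% at P7, 23.5% at P8 and 32.2% at P9. In the LA it was 21 of 182 ECs at P7, 1 of 3 at P8 and 2 of 17 at P9. The part of this uneven mix of zones in the pooled atrial values was not tested. The pooled atrial CD1 values of 9.72% at P7 and 14.0% at P9 lay below those of C57BL/6, a difference that was not tested. In CD1 the RA gave 43 of 72 atrial ECs at P7 and 19 of 50 at P9, so the zone mix also differed between the strains.

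**Figure D3:**
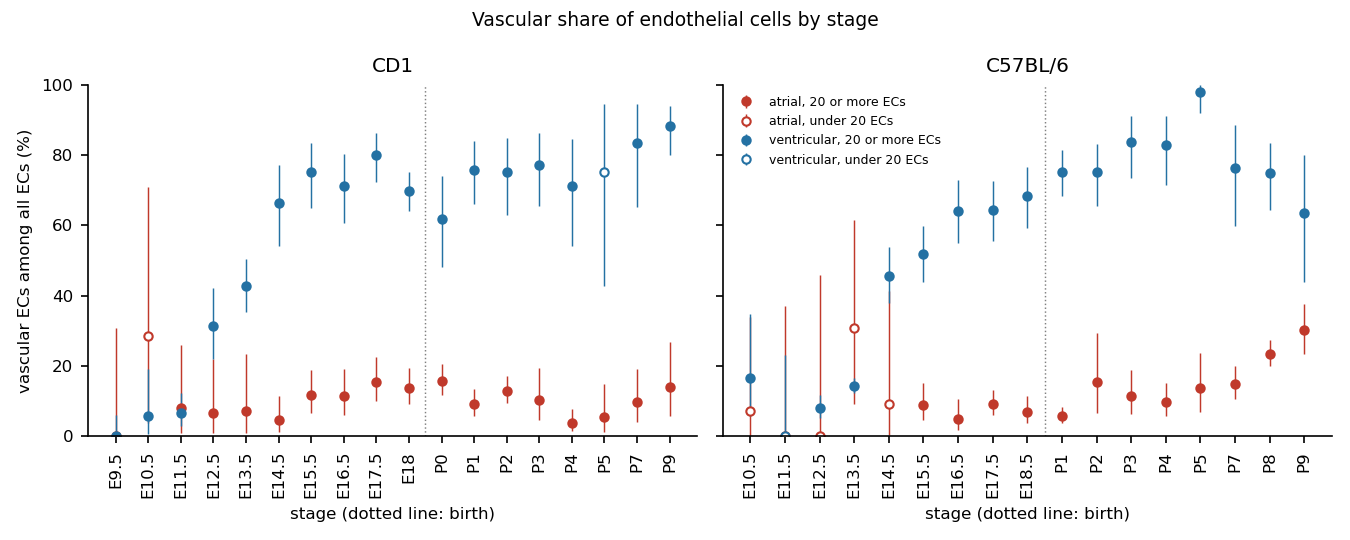
Vascular ECs as a percentage of all ECs (y axis) by stage (x axis) in atrial (red) and ventricular (blue) samples of both strains; open symbols mark sides with under 20 ECs, bars are exact 95% binomial intervals for counting error. In ventricles the part climbs from 6.50% at E11.5 to 75% at E15.5 in CD1, and atrial values stay at or below 15.8% in CD1 and 30.1% in C57BL/6 where at least 20 ECs were counted.

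Pericytes and SMCs, the mural cells that wrap capillaries and larger vessels, were scarce in atria. CD1 atria held 40 pericytes and 14 SMCs and CD1 ventricles 309 and 168, and C57BL/6 atria held 48 and 21 against 329 and 140 in ventricles. The pericyte share of CD1 ran from 0% (7 stages) through 0.349% to 3.33% at P9 in atria and from 0% (E9.5 and E10.5) through 7.14% to 16.7% at P5 in ventricles. Ventricles were higher at 16 of 18 stages with both sides at 0 at the other two, and the difference was -6.05 ± 4.27 points (adjusted p = 0.000229, exact sign-flip permutation test). In C57BL/6 the difference was -4.97 ± 5.01 points (adjusted p = 0.00229, same exact test). There the atrial side was higher at E10.5 to E13.5, each time by 1 cell of 27 to 44, and lower at the 13 later stages. SMCs differed by -3.58 ± 3.71 points in CD1 (adjusted p = 0.00166) and by -3.11 ± 3.15 points in C57BL/6 (adjusted p = 0.00061), by the same exact test. SMCs stayed at or below 1.33% of atrial non-myocytes at every CD1 stage and 0.831% at every C57BL/6 stage, and reached 10.46% at P9 and 11.6% at P4 in ventricles. On a log2 odds scale the C57BL/6 SMC difference of -1.54 no longer passed (adjusted p = 0.109, same exact test). The C57BL/6 pericyte call was lost without the 6 postnatal stages at which over 20% of the few CMs of ventricular samples were annotated as atrial (-3.92 points, adjusted p = 0.0647, same exact test).

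The smaller number of pericytes in atria was set beside the smaller number of vessel cells. Pericytes made up 14.9% of pericytes and vascular ECs together in CD1 atria (40 pericytes and 229 vascular ECs, exact interval 10.8% to 19.7%) and 24.5% in ventricles (309 and 951, 22.2% to 27.0%). In C57BL/6 the values were 12.3% (9.24% to 16.0%) and 22.9% (20.7% to 25.1%). Before birth the CD1 values were 3.33% (3 pericytes and 87 vascular ECs, 0.693% to 9.43%) in atria and 23.1% (20.2% to 26.2%) in ventricles, and the C57BL/6 values 12.3% (5.80% to 22.1%) and 22.9% (19.99% to 26.1%). After birth the CD1 values were 20.7% (14.99% to 27.3%) in atria and 26.8% (22.9% to 30.9%) in ventricles, with intervals that overlap, and the C57BL/6 values 12.3% (8.93% to 16.48%) and 22.8% (19.7% to 26.1%). These counts pool stages, the intervals cover counting error only, and no test was made.

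Fibroblast-like cells, the matrix-producing cells of the wall, were the most frequent ventricular type on average, and the side that held more of them differed between stages. In CD1 the atrial share ran from 0% at E10.5 through 27.6% to 58.2% at P5, and the ventricular share from 4.29% at E9.5 through 38.7% to 48.4% at P2. The ventricle was the higher side at 9 of 10 embryonic stages and at P0 to P3, and the atrium at E9.5, P4, P5, P7 and P9. The values were 45.2% against 41.3% at P4, 58.2% against 40.7% at P5, 49.2% against 39.0% at P7 and 35.0% against 25.9% at P9. In C57BL/6 the ventricle was higher at all 9 embryonic stages and the atrium at P4 (53.8% against 34.3%), P5 (66.7% against 38.6%) and P7 (56.7% against 41.0%), but not at P8 (47.4% against 49.3%) or P9 (34.1% against 42.9%). The LA was thinly covered at the last of these, with 3 of 510 atrial ECs at P8 and 17 of 166 at P9. Over all stages the CD1 difference was -7.39 ± 13.8 points (adjusted p = 0.047, exact sign-flip permutation test), and it missed the threshold when any one of 13 of the 18 stages was left out. The C57BL/6 difference of -7.52 ± 17.4 points had an adjusted p of 0.1 (same exact test). It passed without P4 (-9.20 points, adjusted p = 0.0481) or P5 (-9.75 points, adjusted p = 0.0273) and with all cells as the denominator (-7.93 points, adjusted p = 0.032), by the same exact test. Over the postnatal stages alone the difference did not pass the exact test (0.866 points, adjusted p = 0.844 in CD1, and 4.62 points, adjusted p = 0.41 in C57BL/6).

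Cells that the first annotation had called valve cells lay mostly in ventricular samples. Of 204 such fibroblast-like cells in CD1, 74 were among 1046 fibroblast-like cells of the LV and 101 among 676 of the RV. The LA gave 26 among 793 and the RA 3 among 812, and 159 of the 204 valve cells were embryonic. At E11.5 and E12.5 they were 30 of 44 and 46 of 108 ventricular fibroblast-like cells, against 2 of 6 and 0 of 17 atrial ones. Without the cells first marked as valve, neural crest, Schwann or unsure, the CD1 difference over all stages was -6.52 points and its adjusted p 0.0753 (exact sign-flip permutation test, 16 stages).

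Macrophages, the resident phagocytes, differed little. In CD1 they ran from 0% through 10.2% to 22.5% (P3) in atria and from 0% through 8.28% to 15.8% (E15.5) in ventricles, with wide overlap. Atria were higher at 13 of 18 stages by 2.48 ± 4.21 points (adjusted p = 0.0298, exact sign-flip permutation test), and without any one of E11.5, E17.5, P0 or P3 the adjusted p lay between 0.0521 and 0.0594. In C57BL/6 atria were also higher at 13 of 17 stages, by 3.02 ± 6.89 points (adjusted p = 0.1, same exact test). There the difference passed without E14.5, which had 27 atrial cells (3.86 points, adjusted p = 0.0281), without P7 (3.79 points, adjusted p = 0.0358), with RA against RV (4.14 points, adjusted p = 0.0411) and with the stricter UMI filter (4.45 points, adjusted p = 0.0402), by the same exact test. With all cells, CMs and blood included, as the denominator, the CD1 difference was 0.462 points (adjusted p = 0.494, same exact test).

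**Figure D4:**
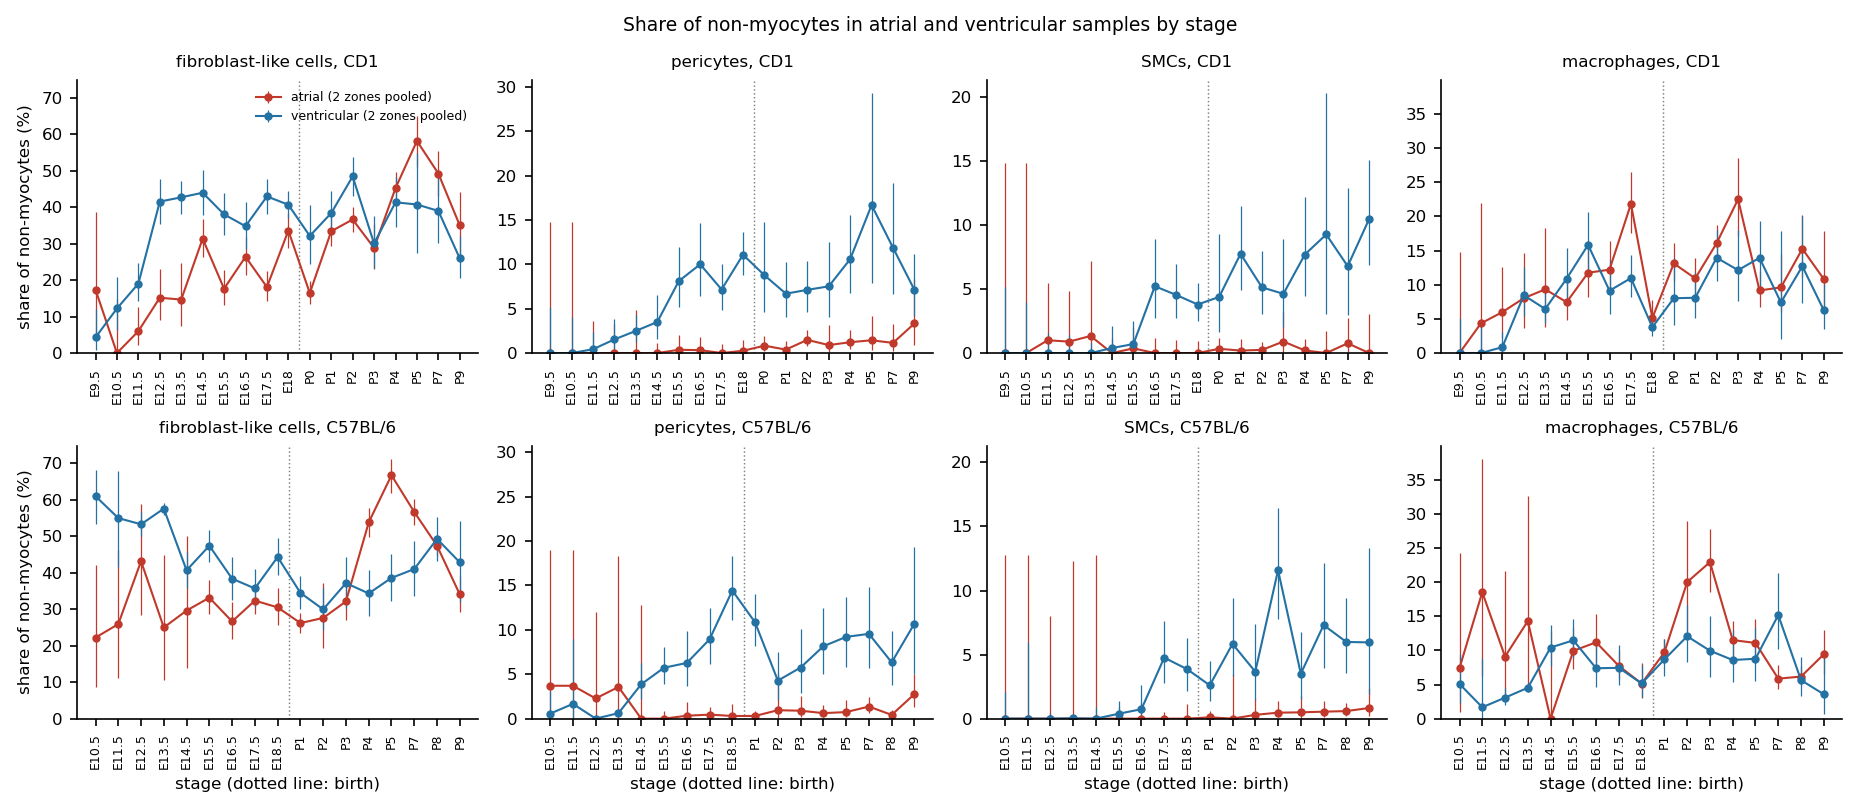
Share of non-myocytes (%, y axis) that were fibroblast-like cells, pericytes, SMCs or macrophages at each stage (x axis) in atrial (red) and ventricular (blue) samples of CD1 (top) and C57BL/6 (bottom); bars are exact 95% binomial intervals for counting error and the dotted line is birth. The fibroblast-like curves cross after P3, with atrial peaks of 58.2% and 66.7% at P5. They cross back by P8 in C57BL/6, where the LA gave 3 of 510 atrial ECs, while atrial SMCs stay at or below 1.33%.

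The side differences were recomputed without stages picked by the CM annotation of a side. Without the early stages at which atrial CMs were under 80% of the CMs on the atrial side, 16 CD1 and 13 C57BL/6 stages remained. The differences were then 20.4 points in CD1 and 23.4 in C57BL/6 for endocardial ECs, -17.2 and -20.1 for vascular ECs, 15.9 and 9.70 for epicardial cells, -6.81 and -7.30 for pericytes and -4.03 and -4.07 for SMCs, and all 10 passed (adjusted p from 0.000153 to 0.00133, exact sign-flip permutation test). Without the stages at which over 20% of the CMs of ventricular samples were annotated as atrial or none was found, 15 and 11 stages remained. Several of those left out held too few CMs to check the label. In CD1, atrial CMs were 3 of 5 at P4 and 1 of 2 at P9, and P7 held 0 CMs. P5 of CD1, with 0 of 2, was kept. In C57BL/6 they were 6 of 8 at P2, 2 of 9 at P4 and 1 of 4 at P5. The differences were -14.02 and -12.9 points for vascular ECs, 18.53 and 11.45 for epicardial cells and -2.70 and -1.42 for SMCs, which passed in both strains (adjusted p from 0.000916 to 0.0234, same exact test). Endocardial ECs passed in C57BL/6 (18.9 points, adjusted p = 0.0152) and not in CD1, and pericytes passed in CD1 (-5.67 points, adjusted p = 0.00183) and not in C57BL/6, by the same exact test. Fibroblast-like cells of C57BL/6 differed by -1.32 points (adjusted p = 0.732) without the early and by -16.2 points (adjusted p = 0.00366) without the late stages, and those of CD1 by -8.36 (adjusted p = 0.0354) and -10.4 points (adjusted p = 0.019), by the same exact test. Macrophages passed in CD1 and not in C57BL/6 under both. Neutrophils of C57BL/6 passed without the early stages (-1.61 points, adjusted p = 0.0253) and not without the late ones (0.343 points, adjusted p = 0.789, same exact test).

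The other leukocytes were rare. C57BL/6 neutrophils, short-lived phagocytes from the blood, were 63 of 6620 atrial and 112 of 8536 ventricular cells and did not pass the test over all stages (-0.702 ± 3.18 points, adjusted p = 0.4, exact sign-flip permutation test). Lymphocyte classes were named in CD1 only. Ventricles held 38 of the 45 T cells, 28 of the 33 B cells and 22 of the 23 natural killer cells, although they held fewer non-myocytes than the atria. P9, with 120 atrial and 239 ventricular non-myocytes, gave 12 of the 38 ventricular T cells and 9 of the 28 B cells. Cells named T cells were also counted at E9.5 (1 atrial, 2 ventricular), E11.5 (2 and 1) and E12.5 (4 ventricular). These names could not be checked. Natural killer cells were 0.0193% of atrial non-myocytes (exact interval 0.000488% to 0.107%) and 0.481% of ventricular ones (0.302% to 0.728%). Ventricular natural killer cells came from 9 stages and B cells from 6, and with so few cells no test was made. Dendritic cells were 10 atrial and 7 ventricular in CD1 and 12 and 5 in C57BL/6. Neutrophils of CD1 were 6 and 16.

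The side differences were next compared between the 10 or 9 embryonic and the 8 postnatal stages, by an exact two-sided permutation test of the stage differences with adjustment over 15 tests. SMCs passed in both strains: their difference was -1.10 points before and -6.68 points after birth in CD1 (adjusted p = 0.00366, exact permutation) and -1.09 and -5.39 points in C57BL/6 (adjusted p = 0.00555). The experiments that span birth end at P3 in CD1 and P4 in C57BL/6, and later stages came from other experiments. In the former alone the SMC change was -4.92 points in CD1 and -4.62 in C57BL/6 (adjusted p = 0.0559 each, exact permutation). On the log2 odds scale the C57BL/6 SMC change was -3.77 (adjusted p = 0.0701, exact permutation). The epicardial excess of atria was 23.7 ± 7.95 points before and 7.71 ± 4.31 points after birth in CD1 (adjusted p = 0.00274, exact permutation). It was 11.1 ± 10.7 and 5.44 ± 5.45 points in C57BL/6 (adjusted p = 0.238, exact permutation). On the log2 odds scale the CD1 epicardial change was 0.22, of the other sign (adjusted p = 0.741, exact permutation), and with blood cells kept in the denominator it was -8.29 points (adjusted p = 0.17, exact permutation). The fibroblast-like difference moved from -18.3 ± 12.1 to 4.62 ± 14.3 points in C57BL/6 (adjusted p = 0.00366, exact permutation) and from -14.0 ± 12.2 to 0.866 ± 11.4 points in CD1 (adjusted p = 0.0511). Neutrophils of C57BL/6 moved from 0.830 to -2.43 points (adjusted p = 0.0363, exact permutation), a call lost without any one of E12.5, E13.5, P1, P2, P4 or P7 (adjusted p up to 0.0551, exact permutation). Endocardial ECs of CD1 moved from 5.73 to 26.5 points (adjusted p = 0.0524, exact permutation). The other 7 comparisons had adjusted p-values from 0.081 to 0.993.

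With RA against RV alone, which leaves the canal and septum out, 15 CD1 and 14 C57BL/6 stages qualified and none of the 15 comparisons passed. The CD1 values were close to those of all zones, with -5.34 points for SMCs (adjusted p = 0.105) and -13.7 points for epicardial cells (adjusted p = 0.0606), and the C57BL/6 values were 16.1 points for fibroblast-like cells (adjusted p = 0.256) and -1.97 points for SMCs (adjusted p = 0.357), all by exact permutation. Without the C57BL/6 stages with under 50 non-myocytes on a side, the fibroblast-like change was 15.4 points (adjusted p = 0.0758) and that of SMCs -2.95 points (adjusted p = 0.178, both exact permutation). Without the stages at which over 20% of the CMs of ventricular samples were annotated as atrial, or none was found, the C57BL/6 changes were 11.7 points for fibroblast-like cells (adjusted p = 0.234), -1.85 points for SMCs (adjusted p = 0.327) and -2.68 points for neutrophils (adjusted p = 0.228), by the same exact test. The strainer used on postnatal ventricles alone moves with this contrast, and its part in the result was not tested.

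The side differences were compared between the strains at the 15 stages of the same name, by exact sign-flip permutation test with adjustment over 7 types. The strains never shared an experiment, so a strain difference cannot be told apart from one between experiments. No type passed. The nearest was the epicardial excess of atria, 16.2 points in CD1 and 9.23 points in C57BL/6, with a difference of 6.93 ± 11.498 points (unadjusted p = 0.0346, adjusted p = 0.185, exact permutation). This was the only type at an unadjusted p under 0.05. For fibroblast-like cells, the sign of the side difference was the same in both strains at 14 of 15 stages, and for vascular ECs and epicardial cells at 13. With LA against LV alone the epicardial difference was -0.293 points over 10 stages. Without P1 in both strains, 2 of the 7 types passed, epicardial cells (8.17 points, adjusted p = 0.0171, same exact test) and pericytes.

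The differences were then read zone by zone, at the 14 CD1 and 11 C57BL/6 stages with at least 20 non-myocytes in each of the 4 zones. Both atria lay above both ventricles in epicardial cells at 14 of 14 CD1 and 9 of 11 C57BL/6 stages, and in endocardial ECs at 12 of 14 and 11 of 11. Both lay below both ventricles in vascular ECs at 14 of 14 and 11 of 11 stages and in pericytes at 14 of 14 and 10 of 11. Fibroblast-like cells separated the sides at fewer stages, with both atria below at 9 and 5 and above at 0 and 3. CD1 endocardial ECs averaged 36.3 ± 9.81% in the LA, 32.0 ± 7.50% in the RA, 9.86 ± 6.98% in the LV and 11.9 ± 6.87% in the RV. Epicardial cells averaged 19.5%, 19.3%, 3.56% and 3.76% in the same order. Other types differed more within a side: vascular ECs of CD1 averaged 3.11% in the LA and 5.59% in the RA, pericytes of C57BL/6 1.78% and 0.456%, and neutrophils of C57BL/6 4.45% in the LV and 2.04% in the RV. Fibroblast-like cells of C57BL/6 averaged 40.8% in the LA, 35.3% in the RA, 40.6% in the LV and 36.5% in the RV. These differences within a side were not tested.

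The distance between the make-up of a pair of zones, the summed absolute difference of all type shares divided by 2, put this in 1 number. In CD1 it averaged 20.7 ± 11.98% for LA and RA, 18.2 ± 6.43% for LV and RV and 46.2 ± 6.25% for the 4 pairs of an atrium with a ventricle. In C57BL/6 the values were 18.9 ± 12.46%, 20.1 ± 8.42% and 44.3 ± 6.07%. Every one of the 4 pairs across sides was more distant than both pairs within a side at 12 of 14 CD1 and 9 of 11 C57BL/6 stages. The exceptions were E12.5 and P7 in CD1 and P3 and P9 in C57BL/6, where LA and RA stood apart by 25%, 49.1%, 39.3% and 41.8%. The distance is a description and has no test, and small samples raise it.

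**Figure D5:**
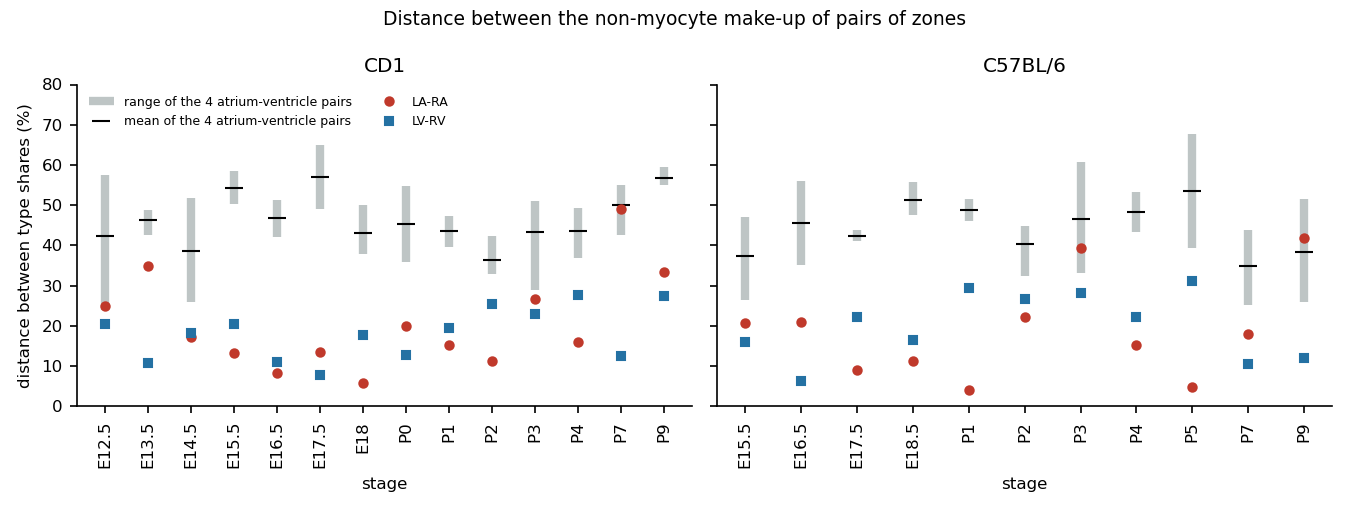
Distance between the non-myocyte make-up of pairs of zones (%, y axis) at each stage (x axis) with at least 20 non-myocytes in every zone; red circles are LA with RA, blue squares LV with RV, grey bars the range and black dashes the mean of the 4 atrium-ventricle pairs. Grey bars lie above both symbols except at E12.5 and P7 in CD1 and at P3 and P9 in C57BL/6, where LA with RA reaches up to 49.1%.

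The wells of the experiments that span birth held the same pool of barcoded cells. Their spread shows technical error, joined in CD1 by loading, since those wells were loaded for 5k, 10k or 25k cells. The 25k well gave 9.19 points for endocardial ECs and -8.65 for vascular ECs. The other CD1 wells gave 18.9 to 22.2 and -13.6 to -20.1 points. In epicardial cells the 25k well gave the highest difference, 16.0 points. In the 5 CD1 wells of the E9.5 to P3 experiment, with all its stages pooled, the difference in endocardial ECs was 18.52 ± 5.35 points (9.19 to 22.2), in vascular ECs -15.03 ± 4.24, in epicardial cells 13.3 ± 2.73, in fibroblast-like cells -13.1 ± 4.08 and in pericytes -4.38 ± 0.633 points. In the 4 C57BL/6 wells it was 15.8 ± 3.17, -8.57 ± 0.972, 8.31 ± 2.15, -16.1 ± 2.25 and -2.85 ± 0.534 points. These types kept 1 sign in every well. CD1 stages P1 and P2 were prepared in 2 experiments each. Endocardial ECs were higher in atria in all of them, by 42.3 and 22.5 points at P1 and by 32.1 and 27.4 points at P2. Vascular ECs differed by -24.4 and -14.1 points at P1 and by -1.67 and -12.6 points at P2. Fibroblast-like cells differed by -3.66 and -4.01 points at P1 and by -20.5 and -7.62 points at P2. The postnatal CD1 stages with more of them in atria, P4, P5, P7 and P9, came from the P2 to P9 experiment alone. Macrophages changed sign between experiments, with -1.41 and 5.55 points at P1 and -7.31 and 6.15 points at P2.

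Depth moved with the side in CD1. Atrial macrophages had more UMIs per cell than ventricular ones at 12 of 12 stages with at least 10 cells on each side, by 0.27 ± 0.22 on the log2 scale of the median UMI count (1.21-fold, adjusted p = 0.00391, exact sign-flip permutation test, 8 tests). Atrial endocardial ECs had more at 12 of 15 stages (0.31 ± 0.27, 1.24-fold, adjusted p = 0.00513, same exact test). Fibroblast-like cells had more at 12 of 15 (0.13 ± 0.19, 1.10-fold) with an adjusted p just under the threshold, and lost the call when any of 12 of the 18 stages was left out. No type passed in C57BL/6 (exact test, adjusted p from 0.0967 to 0.941), where fibroblast-like cells alone had an unadjusted p under 0.05 (0.15 ± 0.25, unadjusted p = 0.0483, 13 stages). With a minimum of 4000 UMIs and at most 20% mitochondrial UMIs, 7 types in CD1 and 6 in C57BL/6 passed the test of shares. The median doublet score was higher in atrial samples at 15 of 18 CD1 and 13 of 17 C57BL/6 stages. Without the top 10% of scores, 6 and 5 types passed.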

How the data were processed

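Hearts of wild-type CD1 and C57BL/6 mice were split by chamber, barcoded by MULTI-seq and sequenced on the 10x platform. The submitters' processing notes name Cell Ranger 3.1.0, GRCm38.p4 and Seurat. The deposited tables hold 1 row per cell, with the total UMI count, the mitochondrial percent, the doublet score (scds, computed by the authors), the well, stage, zone, first annotation and final annotation. These UMI counts are raw totals per cell as the authors deposited them. Cells under 2000 UMIs are absent from the tables. Another 102 columns of these tables were not used, nor were the 2 tables of mutant hearts, in which sides are not split.

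Non-myocytes were counted per strain, stage and zone, LA and RA against LV and RV, and each type was given as a percent of them. Types with at least 100 cells were tested (7 in CD1, 8 in C57BL/6), and every annotated non-myocyte type is named. Stages were the units: the two-sided exact sign-flip permutation test over stages was used for shares, for the vascular share of ECs, for strains and for UMIs, and an exact two-group permutation test for embryonic against postnatal stages, with Benjamini-Hochberg adjustment within each family and a threshold of 0.05. Intervals are 95% Clopper-Pearson, and the limit for a count of 0 is 3 cells of the total. Both cover counting error only. The code (Python 3.11.15, numpy 2.4.6, scipy 1.17.1, pandas 2.3.3) was tested on simulated data. The cell types, groups and tests were chosen with earlier results of these data known. Alternatives covered the minimum of cells, denominator, scale, UMI and doublet filters, single zones, experiments, periods, pairing and each stage left out. Leaving out cells first marked as valve, neural crest, Schwann or unsure, and leaving out stages by the annotation of their CMs, were added after seeing the data.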

Additional observations from a re-analysis of the deposited data

Results flagged for a closer look

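In 30 groups of 8 to 10 stage differences, 4 had 1 stage far from the others, where chance gives about 1 in 20 groups. Epicardial cells of CD1 after birth differed by 17.2 points at P0 (19.4% of atrial and 2.19% of ventricular non-myocytes), and fibroblast-like cells of CD1 before birth by 13.1 points at E9.5, where the atrial side held 4 of 23 cells. Neutrophils of C57BL/6 differed by 6.89 points at E13.5, where the atrial side held 28 cells, and by -9.25 points at P4.

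The side difference also changed between embryonic and postnatal stages in 5 of 15 tests, over 4 types, by the exact permutation test. The change was -16.0 points for epicardial cells and -5.57 points for SMCs in CD1, and 22.9 points for fibroblast-like cells, -4.30 points for SMCs and -3.26 points for neutrophils in C57BL/6. Postnatal ventricular samples alone passed the coarse strainer, and its part in these changes was not tested.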

How the results depend on the processing

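Endocardial ECs, vascular ECs, epicardial cells, pericytes and SMCs kept the sign of their side difference under every alternative run, and with any 1 stage left out all 5 passed in both strains. Over embryonic stages alone 4 types passed in CD1 and 1 in C57BL/6 (fibroblast-like cells, -18.3 points), and none passed in the 5 stages of the CD1 experiment of P2 to P9, where the exact test cannot reach the threshold. The mean difference of fibroblast-like cells was above 0, without passing the test, over the postnatal stages alone (0.866 points in CD1, 4.62 in C57BL/6), in the P2 to P9 experiment (6.60) and with LA against LV in C57BL/6 (0.172). The mean difference of C57BL/6 neutrophils, which did not pass the test over all stages, was above 0 on the log2 odds scale (0.0732), over embryonic stages (0.830) and without stages chosen by the CMs of ventricular samples (0.343). The vascular share of ECs differed by -71.3 points in the P2 to P9 experiment and by -54.7 points over embryonic stages of C57BL/6. Both had 4 stages, at which the exact test cannot reach the threshold.

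For embryonic against postnatal stages, 2 types passed in CD1 and 3 in C57BL/6. The number was 5 in each strain with all cells as denominator (fibroblast-like cells of CD1 then turned to -3.72 points), 0 in each with RA against RV, 1 in C57BL/6 with LA against LV, and 0 in C57BL/6 with a minimum of 50 cells. It was 1 in CD1 in the experiment spanning birth, 1 in C57BL/6 without stages chosen by the CMs of atrial samples, and 1 in CD1 and 0 in C57BL/6 without those chosen by the CMs of ventricular samples. Leaving out 1 stage gave 2 to 5 in CD1 and 2 to 4 in C57BL/6. The CD1 epicardial change turned to 0.22 on the log2 odds scale.

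Between strains, leaving out 1 stage gave 0 to 2 types, and LA against LV turned the epicardial value to -0.293 points. For UMIs, CD1 gave 0 types with LA against LV, with RA against RV and after birth, and 1 before birth and in the experiment spanning birth. C57BL/6 gave 1 with a minimum of 50 cells, with LA against LV and without stages chosen by the CMs of atrial samples, and 0 to 1 with 1 stage left out. The causes were not tested. The CD1 experiment of E18 and P1 and the C57BL/6 experiment of P5 to P9 were not run alone, since they hold 2 and 4 stages. Atrial samples of 23 cells at E9.5 and E10.5 of CD1 and of 27 to 44 cells at E10.5 to E14.5 of C57BL/6 limit what can be read at these stages, and shares say nothing of absolute cell numbers.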

Other observations

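Schwann cells, the glia of peripheral nerves, were marked only in the first annotation of C57BL/6, where 25 came from atrial and 3 from ventricular samples (0.378% and 0.0351% of non-myocytes), and 26 of the 28 were postnatal. Cells first marked as neural crest, within the fibroblast-like cells of CD1, were 9 atrial and 3 ventricular. Endocardial ECs first marked as valve cells in CD1 were 39 atrial and 86 ventricular, of which 60 came from the LV, and 112 of the 125 were embryonic. Fibroblast-like cells of C57BL/6 first marked as unsure were 195 atrial and 607 ventricular. These counts are small or rest on the first annotation, and none was tested.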
